A study of Codonopsis pilosula with 12 samples.

Results

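Transcripts of 3 abscisic acid (ABA) receptor genes, PYL9, PYL8 and PYL4, were followed in leaves of Codonopsis pilosula, a medicinal herb of the bellflower family. The members were chosen by identifier: TRINITY_DN15855_c0_g2 is the gene whose best SwissProt match is receptor PYL9, TRINITY_DN15855_c0_g3 matches PYL8 and TRINITY_DN14705_c0_g7 matches PYL4 (the leading TRINITY_ is left out from here on). They are 3 of 8 genes annotated as ABA receptors among 55270 assembled genes. Leaf RNA of 4-week-old pot-grown seedlings was sequenced in 12 libraries, 3 per group. CW1 and CG1 are the control groups of cultivars Weidang No. 1 (W1) and Gandang No. 1 (G1), taken on day 0 of the experiment, when watering stopped. DW1 and DG1 are the same cultivars on day 4 without water, so the days that passed and the loss of water cannot be told apart. Both cultivars grew from seed in pots kept in the open air under a shelter from rain.

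ABA is the hormone that plants make when water is short. In Arabidopsis it is bound by soluble receptors of the PYR/PYL/RCAR family, and a receptor that holds ABA docks onto clade A protein phosphatases 2C (PP2Cs) and blocks them. The PP2Cs otherwise keep SnRK2 kinases switched off. Once released, the kinases phosphorylate ABF/AREB transcription factors and, in guard cells, ion channels that close the stomata. Within the family, PYL8 and PYL9 belong to a subfamily of monomeric receptors that can bind PP2Cs at low ABA, and in Arabidopsis PYL8 is known for its part in root growth and PYL9 for drought resistance and leaf senescence. PYL4 belongs to another monomeric subfamily, whereas PYR1, PYL1 and PYL2 form dimers that ABA opens. The roles of the Codonopsis genes themselves are taken here from their matches only.

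The libraries held 12415229 to 22837632 estimated counts each. Some libraries call for care. The treatment label of CW1 replicate 1 says drought, whereas its title and the study place it in the control. In CG1, replicates 2 and 3 stood apart from replicate 1 and from CW1, with low PYL9. Among the pathway genes counted further on, they held 89.8 and 110 TPM of the ABA hydroxylase CYP707A1 (3.60 to 8.12 in the other 4 controls). They also held 67.9 and 69.0 of the ubiquitin ligase PUB22 (2.77 to 19.3). Of the C2-domain protein gene CAR4 (DN16110_c1_g3) they held 132 and 69.9 (5.03 to 16.7). A second CAR4 match (DN18069_c1_g5) did not set them apart, with 48.28 and 57.05 against 45.98 to 69.62. DG1 replicate 1 had 2.46% of its TPM in genes with a vertebrate protein match and no plant match, against at most 0.244% in the other 11 libraries. The labels also speak of samples that mix pots and the study's methods of separate pots, so p-values measure the spread between these libraries. Mesophyll markers (33 genes for Rubisco small subunit, its activase and chlorophyll-binding proteins) summed to 84706 to 122946 TPM in CW1 and 73046 to 142130 in CG1. They summed to 93574 to 136236 in DW1 and 15602 to 105986 in DG1, so the lowest DG1 library lay far below every other group. Of the 33, 1 lay under 1 TPM on average. Because whole leaves were sampled, fewer cells of a type and less RNA per cell cannot be told apart.

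PYL9 was the most abundant receptor in every library except CG1 replicates 2 and 3, and the member that rose under drought. In cultivar G1 its TPM (a transcript level corrected for gene length and library depth) was 82.5, 27.4 and 29.9 in replicates 1, 2 and 3 of CG1, and 174, 241 and 259 in DG1. Every DG1 library thus lay above every CG1 library, and CG1 replicate 1 held nearly 3 times as much as its 2 companions. In cultivar W1 the TPM of PYL9 was 126, 86.6 and 105 in CW1 and 149, 166 and 192 in DW1. These groups did not overlap either, but the gap between the highest control and the lowest drought library was small.

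PYL8 moved the other way and over a narrower range. Its TPM was 37.4, 41.6 and 49.2 in CG1 and 21.0, 22.6 and 22.5 in DG1. In W1 it was 25.0, 26.3 and 31.3 in CW1 and 26.8, 20.5 and 21.1 in DW1. The G1 groups were separate, whereas DW1 replicate 1 fell within the range of CW1.

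PYL4 was the least abundant member by mean TPM and had the lowest levels under drought in both cultivars. Its TPM was 20.7, 24.0 and 31.6 in CG1 and 7.94, 4.81 and 6.11 in DG1. In W1 it was 15.4, 21.9 and 13.0 in CW1 and 2.88, 3.59 and 4.45 in DW1. All 6 drought libraries lay below all 6 control libraries.

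**Figure D1:**
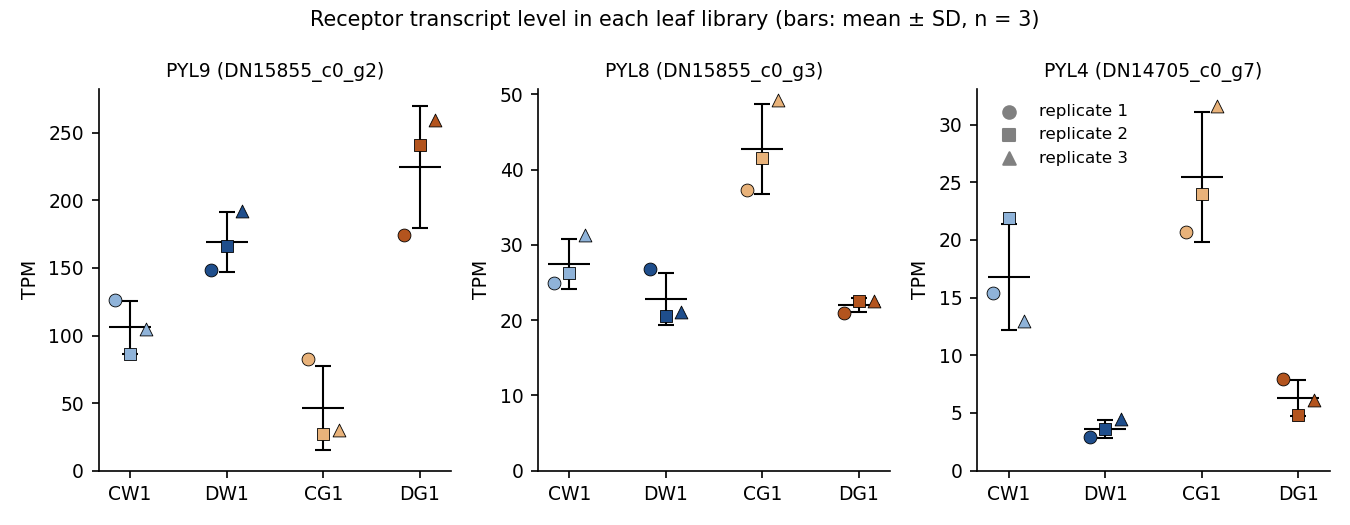
TPM of PYL9, PYL8 and PYL4 in each of the 12 leaf libraries (vertical axes start at 0 and differ between panels), with control and drought groups of W1 (CW1, DW1) and G1 (CG1, DG1) on the horizontal axis. Symbols are replicates 1 to 3, the long bar is the mean and the error bar the SD (n = 3). PYL9 is highest in DG1 (174 to 259), PYL8 is highest in CG1 (37.4 to 49.2), and PYL4 is at or below 7.94 in the drought libraries and at or above 13.0 in the controls.

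The drought response of G1 was tested with DG1 against CG1. PYL9 rose 4.87-fold, with a log2 fold change of 2.28 ± 0.35 (SE, n = 3 per group, edgeR quasi-likelihood test, adjusted p = 0.00248). PYL8 fell by 1.03 on the log2 scale (SE 0.21, edgeR adjusted p = 0.00662), and PYL4 fell by 2.03 (SE 0.31, edgeR adjusted p = 0.0025). So 1 of 3 members rose and 2 fell, where 11.5% of the 29168 genes tested rose in this comparison and 12.3% fell. The TPM of all 3 members also did not overlap between CG1 and DG1, which held upward for 16.4% and downward for 19.0% of the genes tested. All 3 calls in G1 were lost when CG1 replicates 2 and 3, which stood low in PYL9, were both left out, a setting chosen after seeing the data in which the lone CG1 library is assumed to vary like the other groups. The log2 fold change was then 1.60 for PYL9 (edgeR adjusted p = 0.0903), -0.52 for PYL8 (0.26) and -1.51 for PYL4 (0.0694). The whole table held 272 genes that rose and 810 that fell, against 3346 and 3583 with all libraries.

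The drought response of W1 was tested with DW1 against CW1. PYL4 fell by 2.09 on the log2 scale (SE 0.32, n = 3 per group, edgeR adjusted p = 0.0259), and neither PYL9 nor PYL8 passed the test. Thus 1 of 3 members fell, where 0.799% of the genes tested fell and 0.771% rose. PYL9 had a log2 fold change of 0.79 ± 0.34 (edgeR adjusted p = 0.212, unadjusted p = 0.0401) and PYL8 one of -0.19 ± 0.20 (edgeR adjusted p = 0.645). The 95% interval of the PYL8 change (from its SE and 8 residual degrees of freedom) ran from -0.66 to 0.29. A fall of up to 0.66 on the log2 scale in W1 thus lay within it and was not excluded. PYL9 and PYL4 did not overlap between CW1 and DW1, which held upward for 11.3% and downward for 13.7% of the genes tested. The call of PYL4 in W1 was lost without CW1 replicate 1, whose label says drought (adjusted p = 0.0747), without CW1 replicate 2 (0.14) and without DW1 replicate 2 (0.0917), while its log2 fold change stayed between -2.33 and -1.90 when any library was left out. Without CW1 replicate 1, PYL9 had a change of 0.93 in W1 (adjusted p = 0.29) and PYL8 one of -0.24 (0.662).

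Averaged over both cultivars, which sets 6 drought against 6 control libraries, every member passed the test. PYL9 rose by 1.53 ± 0.24 on the log2 scale (SE, edgeR adjusted p = 0.00146), PYL8 fell by 0.61 (SE 0.15, adjusted p = 0.0103) and PYL4 fell by 2.06 (SE 0.22, adjusted p = 0.000376). In this comparison 14.0% of the genes tested rose and 15.3% fell. PYL9 and PYL4 had no overlap between the 6 drought and the 6 control libraries, which held for 4.18% of the genes upward and 4.96% downward. PYL8 did overlap, since CW1 replicates 1 and 2 lay below DW1 replicate 1. With CG1 replicates 2 and 3 left out, the averaged change of PYL8 was -0.36 (edgeR adjusted p = 0.148), whereas PYL9 and PYL4 passed (adjusted p = 0.0231 and 0.00611).

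Whether the cultivars responded differently was tested by the interaction, in which the log2 change of W1 was subtracted from that of G1. It was 1.50 ± 0.48 for PYL9 (SE, edgeR adjusted p = 0.41, unadjusted p = 0.00952), -0.85 ± 0.29 for PYL8 (adjusted p = 0.432, unadjusted p = 0.0142) and 0.05 ± 0.43 for PYL4 (adjusted p = 0.982). So 0 of 3 members passed in edgeR, 2 of 3 had an unadjusted p under 0.05, and 0 passed in DESeq2 or limma. Over all genes, 4 passed downward (0.0137%) and 0 upward, with 2769 genes at an unadjusted p under 0.05, while DESeq2 called 125 upward and 244 downward. With any 1 library left out, edgeR called 0 to 38 genes upward and 0 to 270 downward. The call for PYL9 turned on CG1 replicate 1. Without this library its interaction was 1.97 (edgeR adjusted p = 0.0498). Without CG1 replicate 1 and DG1 replicate 1, a setting chosen after seeing the data, it was 2.18 (edgeR adjusted p = 0.0124). That setting called 63 genes upward and 421 downward over the whole table. With CG1 replicates 2 and 3 left out instead, the interaction of PYL9 was 0.82. For PYL4 the 95% interval of the interaction ran from -0.93 to 1.04, so differences between the cultivars of nearly 2-fold in either direction lay within it.

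Before drought, G1 had a lower mean of PYL9 and higher means of PYL8 and PYL4 than W1, but none of the 3 differences passed the test between CG1 and CW1. PYL9 had a log2 difference of -1.08 ± 0.34 (edgeR adjusted p = 0.193), PYL8 one of 0.88 ± 0.21 (adjusted p = 0.0906) and PYL4 one of 0.79 ± 0.30 (adjusted p = 0.29). All 3 had an unadjusted p under 0.05, as had 3721 of the genes tested, and the test passed 0.377% of all genes upward and 0.0651% downward. DESeq2 called PYL8 (adjusted p = 0.00587), with 951 genes called upward and 465 downward over the whole table, and limma called 0 of 3. The TPM of PYL9 did not overlap between these groups (10.6% of genes downward), nor did that of PYL8 (6.16% upward), while CW1 replicate 2 reached into the range of PYL4 in CG1. Without CG1 replicate 1, PYL9 (-1.56, edgeR adjusted p = 0.0181) and PYL8 (1.09, adjusted p = 0.00403) both passed. Over the whole table, leaving out any 1 library gave 3 to 948 genes upward and 0 to 242 downward, against 110 and 19 with all libraries.

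Under drought DG1 was compared with DW1. The log2 difference of DG1 from DW1 was 0.42 ± 0.34 for PYL9 (edgeR adjusted p = 0.581), 0.04 ± 0.21 for PYL8 (adjusted p = 0.956) and 0.85 ± 0.31 for PYL4 (adjusted p = 0.233, unadjusted p = 0.0202). The 3 DG1 libraries all had more PYL4 than the 3 DW1 libraries, which held upward for 7.14% of the genes tested. Here 0 of 3 members passed in edgeR, DESeq2 or limma, and edgeR called 0.0% of genes upward and 0.00686% downward. In edgeR 1 of 3 had an unadjusted p under 0.05, as had 4679 of the genes tested. Over both water states, PYL4 was 0.82 ± 0.22 higher in G1 on the log2 scale (edgeR adjusted p = 0.0858), PYL8 0.46 ± 0.15 higher (adjusted p = 0.128), and PYL9 had a difference of -0.33 ± 0.24 (adjusted p = 0.479). None of the 3 passed in edgeR, where 0.741% of genes passed upward and 0.559% downward. In edgeR 2 of 3 had an unadjusted p under 0.05, as had 5795 of the genes tested. DESeq2 called PYL4 (adjusted p = 0.0107), with 1383 genes called upward and 1190 downward over the whole table, and limma called 0 of 3.

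The order of the groups differed between the members. For PYL9 the mean TPM ran from 225 ± 44.9 in DG1 through 169 ± 22.0 in DW1 and 106 ± 19.7 in CW1 to 46.6 ± 31.1 in CG1 (SD, n = 3), and no neighbours in this order passed the test against each other. For PYL8 it ran from 42.7 ± 6.01 in CG1 through 27.5 ± 3.32 in CW1 and 22.8 ± 3.46 in DW1 to 22.0 ± 0.91 in DG1, and again no neighbours passed. For PYL4 it ran from 25.4 ± 5.61 in CG1 through 16.8 ± 4.6 in CW1 and 6.29 ± 1.57 in DG1 to 3.64 ± 0.79 in DW1. Of its neighbours, CG1 and CW1 did not pass, nor did DG1 and DW1, and CW1 was not tested against DG1. CG1 was at one end for every member.

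The proportions between the receptors were compared within each library, where depth cancels. The TPM of PYL9 was 5.05, 3.29 and 3.36 times that of PYL8 in CW1 and 5.56, 8.11 and 9.13 times in DW1. In CG1 it was 2.21, 0.66 and 0.61 times that of PYL8, and in DG1 8.30, 10.7 and 11.5 times. PYL8 was thus the more abundant of this pair in CG1 replicates 2 and 3 and in no other library. Averaged over cultivars, drought moved the ratio of PYL9 to PYL8 by 2.18 on the log2 scale, the mean of 0.96 in W1 and 3.39 in G1.

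Against PYL4 the shift was wider. PYL9 was 3.96 to 8.19 times as abundant as PYL4 in CW1 and 0.94 to 3.98 times in CG1, but 43.2 to 51.7 times in DW1 and 21.9 to 50.1 times in DG1, a mean log2 shift of 3.67. PYL8 and PYL4, which both had lower means under drought, did not keep their proportion either: the ratio of PYL8 to PYL4 was 1.2 to 2.41 in CW1 and 1.56 to 1.80 in CG1, and 4.74 to 9.30 in DW1 and 2.64 to 4.69 in DG1, a mean shift of 1.50. Each of the 3 shifts had p = 0.005 in a two-sided exact permutation test of water state within cultivar, the smallest that its 400 arrangements allow, and 0.005 after adjustment over the 3 pairs. Drought and control libraries did not overlap within either cultivar for any pair, which by itself sets p to this smallest value. The shift of PYL9 to PYL4 is by construction the sum of the other 2, so the 3 p-values are not separate results. The share of all gene pairs that shift in this way was not computed.

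**Figure D2:**
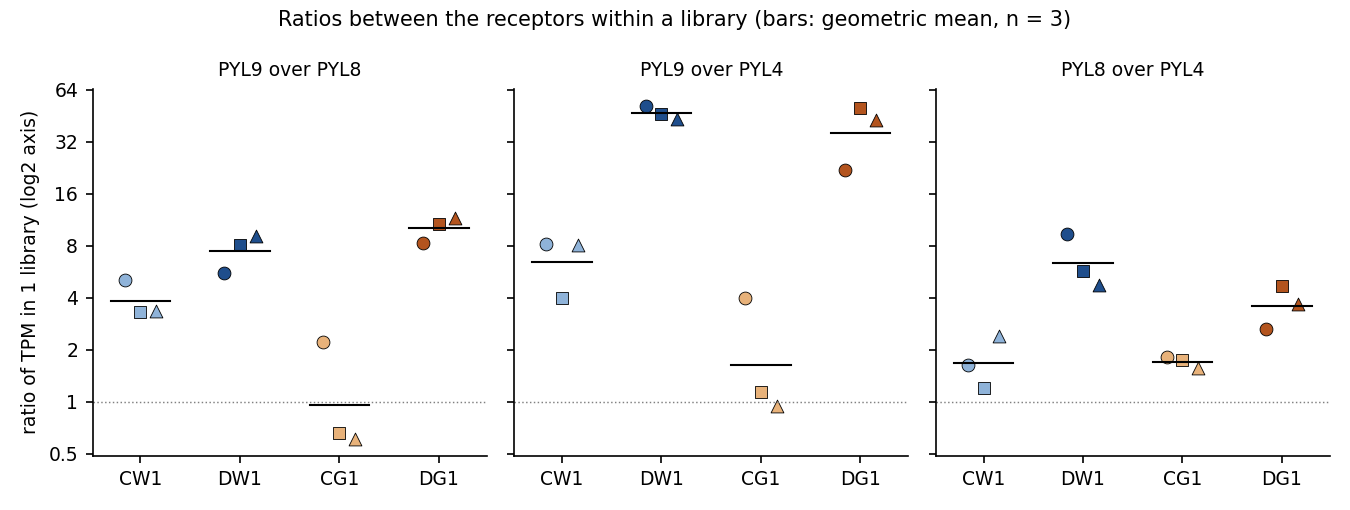
Ratio of the TPM of PYL9 to PYL8, of PYL9 to PYL4 and of PYL8 to PYL4 within each library, on a log2 axis, by group (CW1, DW1, CG1, DG1). Symbols are replicates 1 to 3, bars are geometric means (n = 3), and the dotted line marks equal levels. In every panel the drought libraries of a cultivar lie above its controls, and 2 CG1 libraries have a PYL9 to PYL8 ratio under 1 (0.66 and 0.61).

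The remaining receptor genes show how far the members stand for the family. PYL11 (DN21356_c0_g6) rose in both cultivars, from between 1.50 and 3.72 TPM in the controls to between 6.20 and 24.0 under drought. Its log2 fold change was 2.67 ± 0.54 in G1 (edgeR adjusted p = 0.0068) and 2.88 ± 0.54 in W1 (adjusted p = 0.0402). The call in W1 was lost when any 1 library was left out other than replicate 1 of CG1, DW1 or DG1 (adjusted p = 0.0504 to 0.205). The lowest drought value was that of DG1 replicate 1. A second gene matching PYL9 in SwissProt (DN18670_c0_g3) was nearly level, between 29.6 and 46.4 TPM in all 12 libraries. Its averaged drought effect was 0.25 ± 0.15 (edgeR adjusted p = 0.214). Its match among the NCBI non-redundant proteins is a PYL8-like receptor of Lactuca sativa, so the annotation does not settle its name.

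The second gene matching PYL4 (DN20814_c0_g4) and PYL1 (DN16538_c1_g1), one of the receptors that form dimers in Arabidopsis, fell in the averaged comparison. The fall was 1.36 on the log2 scale for the second PYL4 gene (edgeR adjusted p = 0.00954) and 1.04 for PYL1 (adjusted p = 0.0177). Within a cultivar neither passed in edgeR, with changes in W1 of -1.90 (adjusted p = 0.0635) and -1.37 (0.0914) and in G1 of -0.81 (0.209) and -0.70 (0.219). In W1 both passed in DESeq2 (adjusted p = 0.00209 and 0.0157), which called 1501 genes upward and 1817 downward there. The second PYL4 gene also passed in W1 in edgeR without DW1 replicate 1 (adjusted p = 0.0419) or DW1 replicate 3 (0.0409). With any 1 library left out, edgeR called 0 to 1212 falling genes in W1. PYL2 (DN14676_c0_g7), another such receptor, stayed between 1.33 and 4.58 TPM and passed in none of the drought comparisons. Over the 8 receptors, 2 rose and 2 fell in G1, 1 rose and 1 fell in W1, and 2 rose and 4 fell on average, with a median log2 change of -0.47 on average against 0.02 over all genes tested. Of all genes, 11.5% rose and 12.3% fell in G1, 0.771% and 0.799% did in W1, and 14.0% and 15.3% did on average. The 2 calls in W1 are those of PYL11 and PYL4, each of which was lost without some single libraries.

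**Figure D3:**
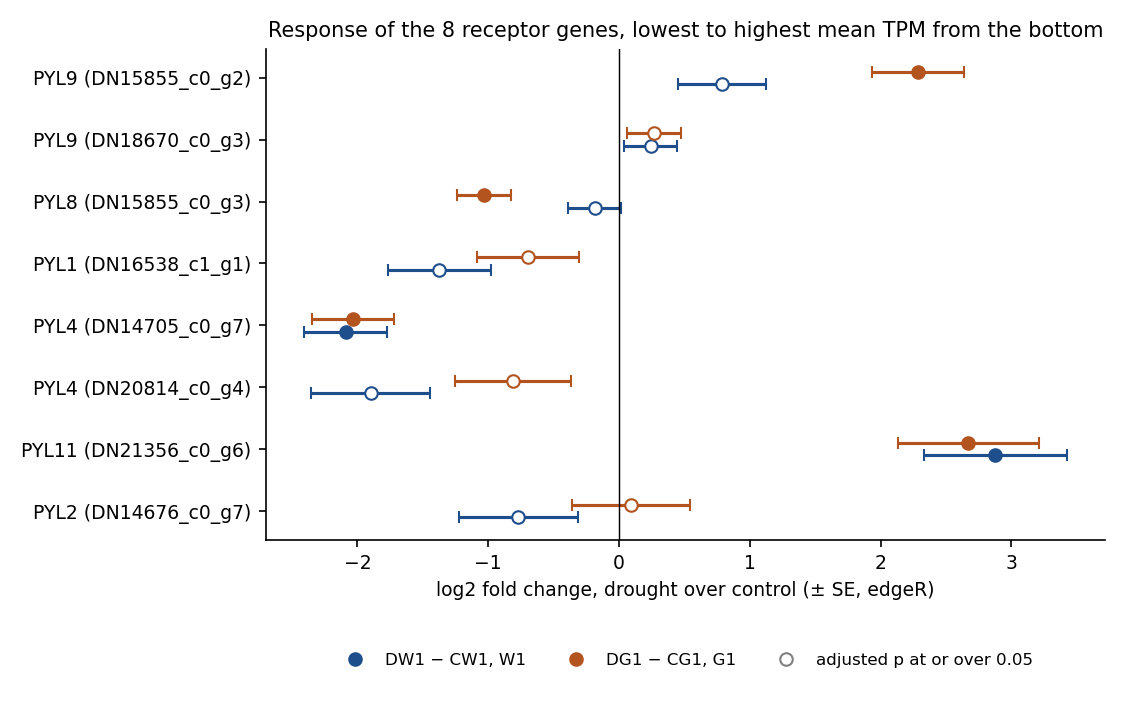
Log2 fold change of the 8 receptor genes under drought (horizontal axis, ± SE from edgeR, n = 3 per group) in W1 (blue) and G1 (brown), the genes ordered by mean TPM with the most abundant on top. Filled points have an adjusted p under 0.05. PYL4 (DN14705_c0_g7) lies near -2 in both cultivars, whereas PYL9 (DN15855_c0_g2) lies at 2.28 in G1 and 0.79 in W1.

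Together the 8 receptors summed to 231 ± 6.10 TPM in CW1, 186 ± 32.6 in CG1, 265 ± 29.0 in DW1 and 332 ± 47.2 in DG1 (SD, n = 3). The higher sums under drought lay in PYL9. Without this gene the other 7 summed to 125 ± 13.6 in CW1 and 139 ± 5.45 in CG1, and to less, 95.7 ± 9.04 in DW1 and 107 ± 2.54 in DG1, under drought. PYL9 made up 45.7% ± 7.32 of receptor TPM in CW1 and 23.7% ± 11.5 in CG1, against 63.8% ± 2.29 in DW1 and 67.3% ± 4.25 in DG1. PYL8 took 11.9% in CW1, 23.6% in CG1, 8.73% in DW1 and 6.70% in DG1, and PYL4 took 7.28%, 14.1%, 1.36% and 1.96% in the same order.

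The levels of these shares depend on the length used for each gene. PYL9 was assembled with 11 isoforms and PYL8 with 5, and PYL4 with 1. TPM uses the lengths that RSEM gave to the expressed isoforms. When the counts were divided by the single length given for each gene, an alternative chosen after seeing the data, the share of PYL9 was 33.7% in CW1, 16.8% in CG1, 52.3% in DW1 and 54.8% in DG1.

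**Figure D4:**
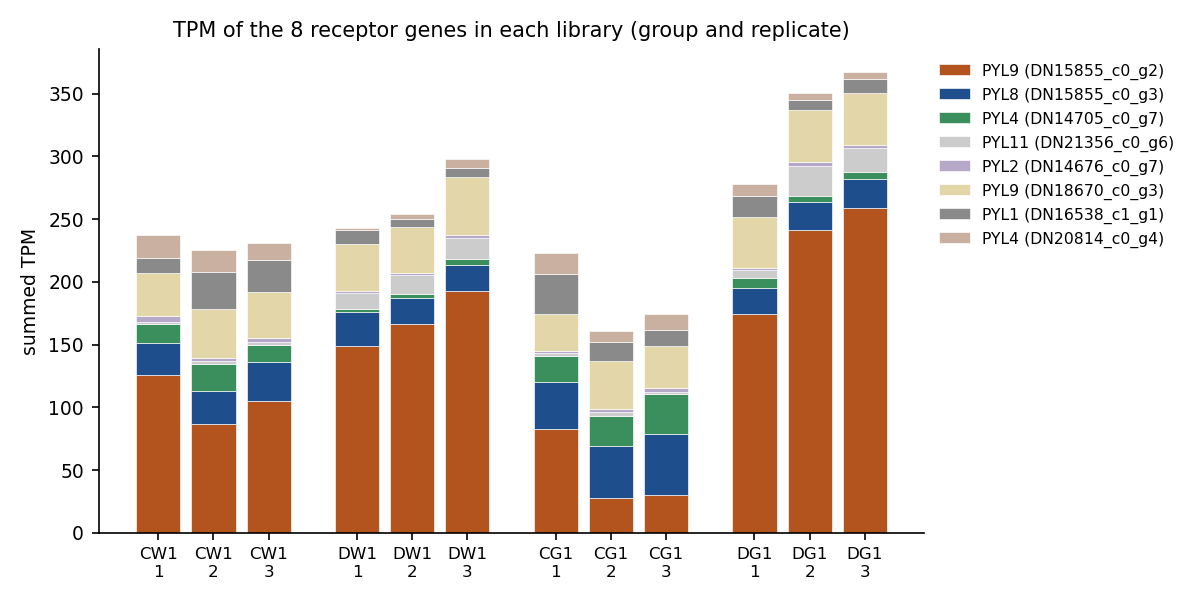
Summed TPM of the 8 receptor genes in each of the 12 libraries (vertical axis from 0, 1 bar per library, labelled with group and replicate), with each gene as a coloured part. PYL9 (brown) is the largest part in every drought library, and its own lowest levels are in CG1 replicates 2 and 3, at 27.4 and 29.9 TPM.

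PYL9 and PYL8 come from the same Trinity component, DN15855_c0, which holds 4 genes, so reads from stretches that both share could be divided between them by RSEM. The estimated counts of PYL8, 329 to 1199 per library, were whole numbers at the 2 decimals given in 12 of 12 libraries, and those of PYL9, 800 to 7200, in 9 of 12. PYL4, with 52 to 680 counts, was whole in 12 of 12. The other annotated gene of the component, DN15855_c0_g6, matches a deoxynucleoside kinase and had mean TPM of 37.7 in CW1, 34.7 in CG1, 15.0 in DW1 and 15.0 in DG1. Identity between the transcripts was not analysed here.

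Markers of other cells were read beside these results. The guard cell list held 12 genes and summed to 192 to 274 TPM in CG1 and 337 to 375 in DG1, and to 258 to 272 in CW1 and 267 to 365 in DW1, so it was higher under drought in G1, where PYL9 rose. Nearly all of that sum came from 6 genes matching the kinase HT1. The 5 genes matching FAMA, SLAC1 and the KAT1 channel, which define guard cells in Arabidopsis, summed to 4.94 to 12.8 in CG1 and 5.23 to 13.9 in DG1, and each averaged at least 1.07 TPM. The remaining list member is a thiolase that shares the symbol KAT1. The part of the HT1 kinases in the rise of PYL9 was not tested. Root markers (11 genes, of which 4 averaged under 1 TPM and 1 matched a human caspase through its symbol) summed to between 27.9 and 43.6 TPM in CW1 against 14.4 and 27.6 in DW1, and to between 15.9 and 42.9 in CG1 against 15.1 and 38.7 in DG1. The sum was thus lower in DW1 than in CW1 without overlap, beside the fall of PYL4 in W1. In G1, where PYL4 also fell, the sums of the groups overlapped. The part of these genes in either fall was not tested.

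Downstream and around the receptors, the other genes of the pathway were counted from lists set by annotation, to be read against the shares of all genes that rose (11.5% in G1, 0.771% in W1, 14.0% on average) and fell (12.3%, 0.799% and 15.3%). Of the PP2Cs, which the receptors inhibit, 6 of 8 rose in G1, 3 of 8 in W1 and 6 of 8 on average, and none fell. Among them At2g29380 (DN14062_c0_g4) had log2 fold changes of 4.39 in G1 and 3.19 in W1 (edgeR adjusted p = 0.000624 and 0.0175), and PP2CA (DN16290_c0_g3) 1.80 and 2.61 (0.00944 and 0.0262). The 2 genes matching HAB1 changed less: DN15695_c1_g1 rose by 1.38 and DN15304_c0_g4 by 0.66 in G1 (adjusted p = 0.00213 and 0.0421). The 3 calls in W1 were all lost without CW1 replicate 1 or CW1 replicate 2, and 1 was left without DW1 replicate 2. The smaller HAB1 call in G1 (DN15304_c0_g4) held in 3 of the 12 fits that left out 1 library, whereas those of At2g29380, PP2CA and DN15695_c1_g1 in G1 held in 12 of 12. The median of the list was 1.64 on average, against 0.02 over all genes. Receptor TPM stood at 2.13 ± 0.12 times PP2C TPM in CW1 and 1.59 ± 0.29 in CG1, and at 0.78 ± 0.32 in DW1 and 0.63 ± 0.11 in DG1 (SD, n = 3).

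Of the SnRK2 kinases, 3 of 8 tested rose in G1 and 0 in W1, and 2 rose on average. SAPK10 (DN16475_c0_g2) rose by 0.77 in G1 (edgeR adjusted p = 0.00778), and the SAPK1 matches DN17683_c1_g1 and DN17916_c0_g4 by 0.71 and 0.73 (0.0399 and 0.038). Of the 6 ABF/AREB/ABI5 factors, 3 rose in G1, 2 in W1 and 3 on average. ABF4 (DN19537_c1_g1) rose by 1.07 in G1 and 0.91 in W1 (adjusted p = 0.00266 and 0.0393) and ABF2 (DN18961_c0_g2) by 1.89 and 2.00 (0.00573 and 0.0382), whereas GBF4 (DN21161_c0_g5) rose by 0.78 in G1 (0.0319). None of either list fell. When 1 library was left out, both SAPK1 calls held in 4 of 12 fits each, that of GBF4 in 6 of 12, and those of ABF4 and ABF2 in W1 in 3 of 12 each (adjusted p up to 0.199 and 0.187). With CG1 replicates 2 and 3 left out, none of the SnRK2 calls named in G1 passed, nor did ABF4 (adjusted p = 0.106), while ABF2 did (0.0345).

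Among genes that set the amount of ABA, the counts of the synthesis list in G1 lay near the shares of all genes. Those of the breakdown list (40% of 5 tested rose) and the transport list (33.3% of 3 tested fell) were higher. Of 31 tested synthesis genes, 4 rose (12.9%) and 5 fell (16.1%) in G1, 0 passed in W1, and 5 rose and 8 fell on average, but this list also takes in short-chain dehydrogenases and CCD4 (DN21502_c0_g1), which cleaves other carotenoids. On average NCED3 (DN17465_c0_g5), the step that commits carotenoids to ABA, rose by 1.52 (edgeR adjusted p = 0.0175), ABA2 (DN13541_c0_g9) by 0.95 (0.00466), CCD4 by 1.57 (0.00402) and the cofactor sulfurase FLACCA (DN20679_c0_g1) by 0.57 (0.00354). In neither cultivar alone did NCED3 pass, with changes of 1.09 in G1 and 1.94 in W1 (edgeR adjusted p = 0.184 and 0.0998). On average DN15087_c0_g2 fell by 1.81 and DN15749_c0_g9 by 2.5, both matching dehydrogenases of lignan or terpene synthesis, and SDR2a (DN13106_c1_g8) fell by 2.73 and a second FLACCA match (DN17696_c1_g1) by 0.60 (adjusted p = 0.00277, 0.000961, 0.00883 and 0.0296). Of 5 tested CYP707A hydroxylases, which break ABA down, 2 rose in G1 and on average, CYP707A2 (DN17264_c0_g3) by 1.73 and CYP707A4 (DN17245_c0_g3) by 2.03 in G1 (adjusted p = 0.0356 and 0.0168). When 1 library was left out, the G1 call of CYP707A2 held in 7 of 12 fits and that of CYP707A4 in 10 of 12, and both were lost without CG1 replicate 3. CYP707A1 (DN18330_c0_g2, named after its values were seen) had the highest mean TPM of the hydroxylases over all libraries, through CG1 replicates 2 and 3. Its mean was below that of CYP707A2 in DG1 (20.9 against 29.1) and in DW1 (13.3 against 14.2). CYP707A1 had 7.04, 89.8 and 110 TPM in CG1 and 33.3, 13.6 and 15.7 in DG1, with a change of -1.84 that did not pass (edgeR adjusted p = 0.127). With CG1 replicates 2 and 3 left out, its change was 1.90. The transport list had 1 of 3 tested genes that fell, NPF4.6 (DN17596_c0_g2), by 2.56 in G1 (0.0398), a call that held in 3 of the 12 fits that left out 1 library.

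Genes known in Arabidopsis to act on the receptors themselves were counted separately. Of 9 tested, 2 rose and 1 fell in G1 and on average, and 0 passed in W1. PUB22 (DN17162_c0_g1), a ubiquitin ligase of the group that marks PYL9 for breakdown in Arabidopsis, fell by 4.57 on the log2 scale in G1 (edgeR adjusted p = 0.0029). Its TPM was 19.3, 67.9 and 69.0 in CG1 and 5.05, 1.26 and 0.82 in DG1, and with CG1 replicates 2 and 3 left out the change was -2.93 (adjusted p = 0.0638). The 2 matches of FREE1, which sends receptors to the vacuole, rose by 0.66 (DN17096_c1_g2) and 0.76 (DN14582_c1_g1) in G1 (0.0214 and 0.0183), and both calls were lost without replicate 1 or 3 of CG1 or of DG1. Of 18 tested ABA-responsive genes, 4 rose and 1 fell in G1, 1 rose in W1, and 8 rose and 2 fell on average. SAG21 (DN14809_c1_g6) rose by 2.30 in W1 (0.0426), a call that held in 3 of the 12 fits that left out 1 library, and RD22 (DN15535_c0_g6) by 3.30 in G1 (0.00436), while DN16504_c0_g2 and DN14479_c1_g5, both matching late embryogenesis abundant proteins, rose by 5.88 and 4.94 on average (0.00275 and 0.0039). DW1 replicate 3 did not share that rise: it held 0.30 and 0.28 TPM of them, where DW1 replicates 1 and 2 held 4.06 and 51.4 of DN16504_c0_g2 and 214 and 91.6 of DN14479_c1_g5. A second RD22 match (DN15535_c0_g3) fell by 1.17 on average (0.0117), and so did KIN1 (DN18274_c0_g1), by 4.44 (0.0171), which here is a kinesin picked up through its symbol and is also the 1 gene of the list that fell in G1 (0.0282).

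**Figure D5:**
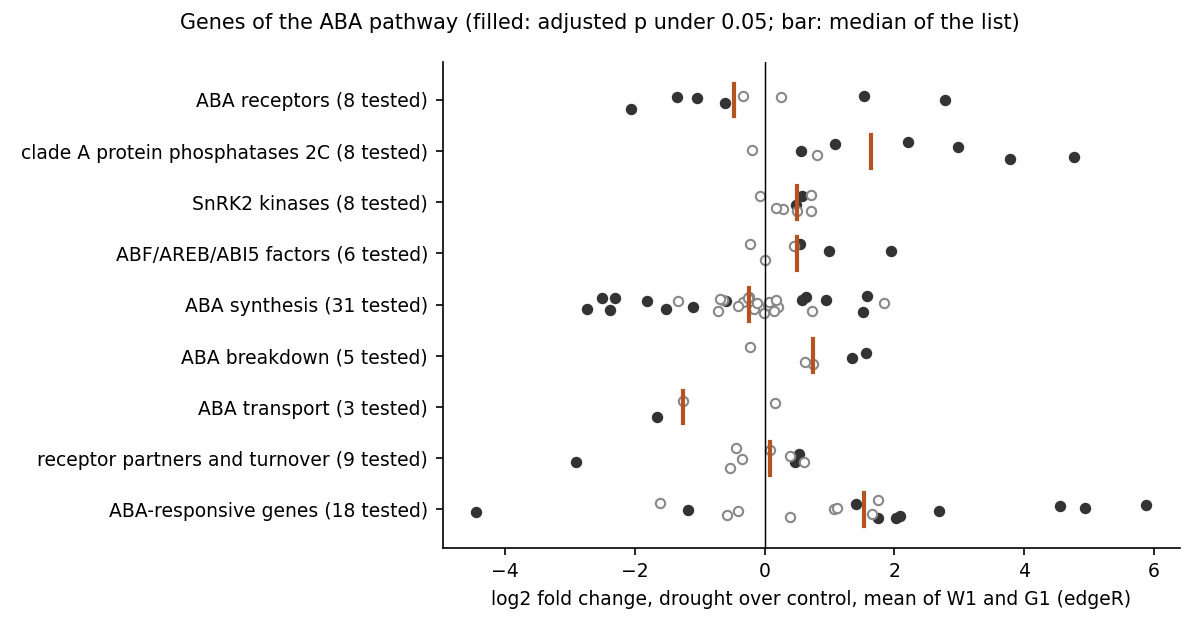
Log2 fold change under drought, averaged over W1 and G1 (horizontal axis, edgeR), of each tested gene in 9 ABA lists (rows, with the number tested). Filled points have an adjusted p under 0.05, open points do not, and the brown bar is the list median, which is -0.47 for the receptors and 1.64 for the PP2Cs.

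Last, the genes whose pattern was most like each member were named by Pearson r of log2(TPM + 1) over the 12 libraries, a description in which shared water state counts for much. Among 14708 genes, those most like PYL9 were YSL6 (DN19950_c1_g4, r = 0.975), a metal-nicotianamine transporter, the F-box gene At2g27310 (DN12893_c0_g9, r = 0.973) and eif3g-a (DN15419_c0_g3, r = 0.97), a translation initiation subunit. Those most like PYL8 were the cell wall genes THE1 (DN13413_c0_g2, r = 0.958), EXO (DN15344_c0_g4, r = 0.954) and XTH23 (DN15584_c0_g3, r = 0.951). These take part in wall sensing and growth, and EXO averaged 28.6 TPM in the controls against 0.60 under drought. Those most like PYL4 were 2 chloroplast chaperonin genes, DN15606_c0_g1 (r = 0.954) and CPN60B1 (DN20454_c1_g1, r = 0.949), and the GTPase gene era (DN14957_c0_g1, r = 0.941). By Spearman's rho, YSL6, At2g27310 and eif3g-a stood at ranks 26, 41 and 40 for PYL9. For PYL8, THE1 stood at rank 6, EXO at 771 and XTH23 at 85. For PYL4, DN15606_c0_g1 stood at rank 51, CPN60B1 at 4 and era at 38. An r over 0.8 was reached by 710 genes for PYL9, 225 for PYL8 and 376 for PYL4.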

How the data were processed

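The authors assembled the reads of all libraries with Trinity 2.5.0 and estimated expression with RSEM 1.2.31, whose expected counts and TPM were deposited in 1 table of 55270 genes. A mouse genome build in the labels was not used. Here expected counts were rounded, filterByExpr left 29168 genes, and the quasi-likelihood test of edgeR 4.0.16 in R 4.3.3 was run on them with TMM factors and 1 mean per group over 12 libraries, with Benjamini-Hochberg adjustment over all of them. Rose and fell mean an adjusted p under 0.05. DESeq2 1.42.0, limma 3.58.1 on log2(TPM + 1) and log2(TPM + 0.1), other scalings and filters, and each library left out were alternatives. Groups follow sample titles. Named genes are the 3 members, all other receptors, per further list up to 4 genes per direction past the test with the highest mean TPM, and 3 genes most like each member. Members and lists were chosen with earlier results of these data known. No sequences were printed, since none were analysed here.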

Additional observations from a re-analysis of the deposited data

Results flagged for a closer look

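DG1 replicate 1 had 2.46% of its TPM in genes with a vertebrate protein match and no plant match, a signal outside the comparisons above and higher than in the control libraries, of which the highest, CG1 replicate 1, had 0.202%. Without DG1 replicate 1 the log2 fold change in G1 was 2.47 for PYL9, -0.98 for PYL8 and -2.21 for PYL4 (edgeR adjusted p = 0.0041, 0.0245 and 0.00579).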

How the results depend on the processing

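Of 495 values that the alternatives set at the start gave for 24 results on PYL9, PYL8 and PYL4, 475 kept their direction and their side of the threshold, and 16 of the 24 results did so under each of them. The calls of all members in G1 and on average and all 3 ratio shifts were among these 16. For PYL9 before drought, values without 1 library ran from -1.56 to -0.88, and for its interaction from 1.30 to 1.97. For PYL8 before drought they ran from 0.75 to 1.09 (DESeq2 0.90), for its mean cultivar difference from 0.39 to 0.56, and for PYL8 under drought from -0.0053 to 0.10. The latter, near 0, changed sign with library size alone (-0.032) and in limma-trend on log2(TPM + 1) (-0.039) and log2(TPM + 0.1) (-0.040). For PYL4 in W1 they ran from -2.33 to -1.90 (-2.08 with the 2 groups alone, edgeR adjusted p = 0.0811), for its interaction from -0.18 to 0.28, and for its mean cultivar difference from 0.71 to 0.93 (DESeq2 0.84).

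With settings chosen after seeing the data, leaving out CG1 replicates 2 and 3 gave 1.60 for PYL9, -0.52 for PYL8 and -1.51 for PYL4 in G1, -2.09 for PYL4 in W1 and -0.36 for PYL8 on average. Leaving out CG1 replicate 1 and DG1 replicate 1 gave -1.56 for PYL9 and 1.09 for PYL8 before drought, 2.18 for the interaction of PYL9, -0.34 for that of PYL4 and 0.59 for the mean cultivar difference of PYL8. PYL2, near 0 in G1, ran from -0.18 to 0.44 without 1 library and was -0.069 without both of those, and its averaged change was 0.0087 without CG1 replicates 2 and 3. The cause was not tested.

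Replicate numbers did not pair the libraries: of 18 pairs with the same number, 3 had a correlation of deviations over 0.1 (-0.177 to 0.27). With the replicate block, PYL9 in G1 was 2.32, PYL8 -1.01 and PYL4 -1.99, and 21 of 21 values kept their direction and side.

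Counts over the whole table moved more than the members: these alternatives gave 1575 to 4180 rising genes in G1 (3346 as reported), 0 to 1501 in W1 (225) and 2698 to 4949 on average (4085). Falling genes ran from 2061 to 4741 in G1 (3583), 0 to 1817 in W1 (233) and 3233 to 5386 on average (4469). With 3 libraries per group and as few as 52 counts for PYL4, small differences may have been missed.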
